A study of Homo sapiens and Mus musculus with 8 samples.

Results

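The genes described here are the 48 members of a module of amino acid transport and the integrated stress response: 10 stress regulators, 4 effector genes of the transcription factor ATF4, 7 genes of amino acid synthesis, 12 amino acid transporters, 7 aminoacyl-tRNA synthetases and 8 genes of the unfolded protein response. They were found by symbol, ignoring case, in the 2 gene tables of the series. The table of the human line H146 listed 47 of them among 20863 genes, and that of the mouse line F1339 listed 46 among 16833. SLC7A3 was not in the H146 table, SLC6A14 and SLC38A5 were not in the F1339 table, and 45 members were in both. Every listed member passed the filter on low values, which asked for 10 normalized counts or more in 2 or more libraries of a line.

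The integrated stress response starts when one of several kinases, among them PERK (EIF2AK3) in the endoplasmic reticulum and GCN2 (EIF2AK4), which senses uncharged tRNA and stalled ribosomes, phosphorylates the translation initiation factor eIF2 on its alpha subunit. General translation then falls while the mRNA of ATF4 is translated more, so the level of ATF4 mRNA is not a measure of ATF4 protein. ATF4 and its partners of the C/EBP family bind composite elements in genes of amino acid uptake, amino acid synthesis and tRNA charging, and in stress genes such as CHOP (DDIT3), TRIB3 and CHAC1. The unfolded protein response is the sister program of the endoplasmic reticulum, in which IRE1 (ERN1) and its target XBP1, together with ATF6, raise chaperone genes. Decitabine is a deoxycytidine analog that is built into DNA and depletes the maintenance DNA methyltransferase DNMT1.

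RNA was sequenced from small cell lung cancer cells, a neuroendocrine cancer of the lung, in bulk. NCI-H146 cells, called H146, were given 0.5 µM decitabine or vehicle and sampled at 96 h, and F1339 cells were given the same dose or vehicle and sampled at 72 h, with 2 libraries in each of the 4 groups. Each species is represented by a single line, the vehicle is not named, and the labels call the libraries of a group duplicates without saying whether they were separate cultures. The p-values below therefore rest on the spread between these libraries, pooled in part across genes of similar level, and that spread may be technical. Species, line and time of sampling change together between the tables, and so cannot be told apart.

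Libraries held 62462654 to 67108249 gene-assigned reads in H146 and 61364041 to 67892360 in F1339. The first decitabine library of H146 stood apart, with 7.56% of its reads in mitochondrially encoded genes and 8.34% in its 10 most abundant genes, against 6.19% and 7.10% in the second decitabine library and 6.09% to 6.29% and 7.005% to 7.11% in the vehicle libraries. Values without it are given beside the calls that it ends, and its part in them was not tested otherwise. With either decitabine library of H146 left out, fewer of all genes were called as well. All 9 neuroendocrine markers were listed in both tables, with a summed level of 289723 and 303523 normalized counts in the decitabine libraries and 306932 to 307146 in the vehicle libraries of H146. In F1339 this sum ran from 218535 to 299478 in decitabine and from 270211 to 390578 in vehicle. Markers of other cells were present at lower levels, and the endothelial sum was 1139 to 1179 in decitabine against 366 to 410 in vehicle for H146, with KDR not in the table, and 708 to 1083 against 374 to 438 for F1339. The lung epithelial sum of H146 was 4704 to 5107 in decitabine against 2317 to 2618 in vehicle, nearly all of it FOXJ1, with SFTPB, SFTPC and SCGB1A1 not in the table. The part of these markers in the results below was not tested. In F1339, both libraries numbered 1 stood on the same side of both libraries numbered 2 for 52.7% of all genes tested, against 17.4% in H146. Of the members this held for 31 of 46 in F1339 and 12 of 47 in H146.

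Sequences that match response elements of these programs can be read in the promoters of some members. RefSeq promoter windows of the build GRCh38.p14, from 250 bases before to 50 bases after a gene's start, were matched for 43 of the 47 H146 members, and none was matched for NUPR1, PSPH, SHMT2 and SLC7A11. Each window was searched on both strands for the composite element bound by ATF4 with a C/EBP partner, TGATGNAA, and for the endoplasmic reticulum stress element, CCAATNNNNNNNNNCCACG. The first was found in 13 of the 43 members (30.2%) and in 3.6% of 15843 protein-coding genes with a window, and the second in 3 members (6.98%) and in 0.133% of those genes. The members were listed as genes of these programs, so a higher share among them is not an independent result. The elements do not overlap in any printed stretch. The stretches below show the element in capitals within its flanks, on the strand of the gene and 5′ to 3′, for the 2 carriers of the composite element that rose in H146 (ATF3 and CHAC1), for 3 carriers that were not called there (ASNS, AARS and HERPUD1), and for the 3 carriers of the stress element. In CHAC1, AARS and HERPUD1, and in the second match of HSP90B1, the capitals are the reverse complement of the element, because the match lies on the opposite strand.
ATF3, chr1:212565191-212565248, + strand: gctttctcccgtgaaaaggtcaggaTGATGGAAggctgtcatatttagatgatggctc
CHAC1, chr15:40953237-40953294, + strand: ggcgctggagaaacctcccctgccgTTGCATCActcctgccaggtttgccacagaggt
ASNS, chr7:97872444-97872501, - strand: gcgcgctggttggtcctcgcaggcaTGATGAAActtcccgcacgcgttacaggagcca
AARS, chr16:70289661-70289718, - strand: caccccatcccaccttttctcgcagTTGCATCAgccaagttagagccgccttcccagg
HERPUD1, chr16:56931941-56931998, + strand: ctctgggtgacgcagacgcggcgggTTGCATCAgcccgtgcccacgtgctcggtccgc
HSPA5, chr9:125241366-125241434, - strand: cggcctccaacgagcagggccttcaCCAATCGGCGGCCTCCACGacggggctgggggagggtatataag
XBP1, chr22:28800578-28800646, - strand: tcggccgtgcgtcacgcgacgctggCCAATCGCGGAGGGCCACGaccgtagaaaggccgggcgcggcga
HSP90B1, chr12:103930191-103930364, + strand: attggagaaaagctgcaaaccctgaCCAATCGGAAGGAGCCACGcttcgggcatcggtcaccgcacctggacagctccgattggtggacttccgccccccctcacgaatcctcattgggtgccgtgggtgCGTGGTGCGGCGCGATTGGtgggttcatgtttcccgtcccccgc
A match is a run of letters in a window and not a measured site. The other carriers of the composite element were SLC1A4, SLC1A5, SLC3A2, SLC7A1, SLC38A1, GARS, MARS and NARS.

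In H146, stress regulators and ATF4 effector genes made up 8 of the 9 members that were higher in decitabine, led by NUPR1 and ATF3, while the transporters and synthetases had 6 of the 10 members that were lower and none that was higher. The steepest falls were those of the transporters SLC38A5 and SLC6A14. The roles were not tested against each other. Of the 47 members tested, 9 were higher and 10 lower (limma, Benjamini-Hochberg adjusted p below 0.05 over all 20783 genes tested), and 28 were not called. Over all genes tested 15.4% were called higher and 12.3% lower, or 27.7% in either direction, beside 40.4% of the members. Both decitabine libraries lay on the same side of both vehicle libraries for 61.7% of the members, against 62.1% of all genes tested. The median log2 difference, decitabine minus vehicle, was -0.02 over the members and -0.01 over all genes. With all libraries rescaled to an equal upper quartile these medians were 0.012 and 0.025, so the sign of the members' median is set by the scaling. These are bulk libraries, in which a change in the number of cells that express a gene and a change in RNA per cell cannot be told apart.

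**Figure D1:**
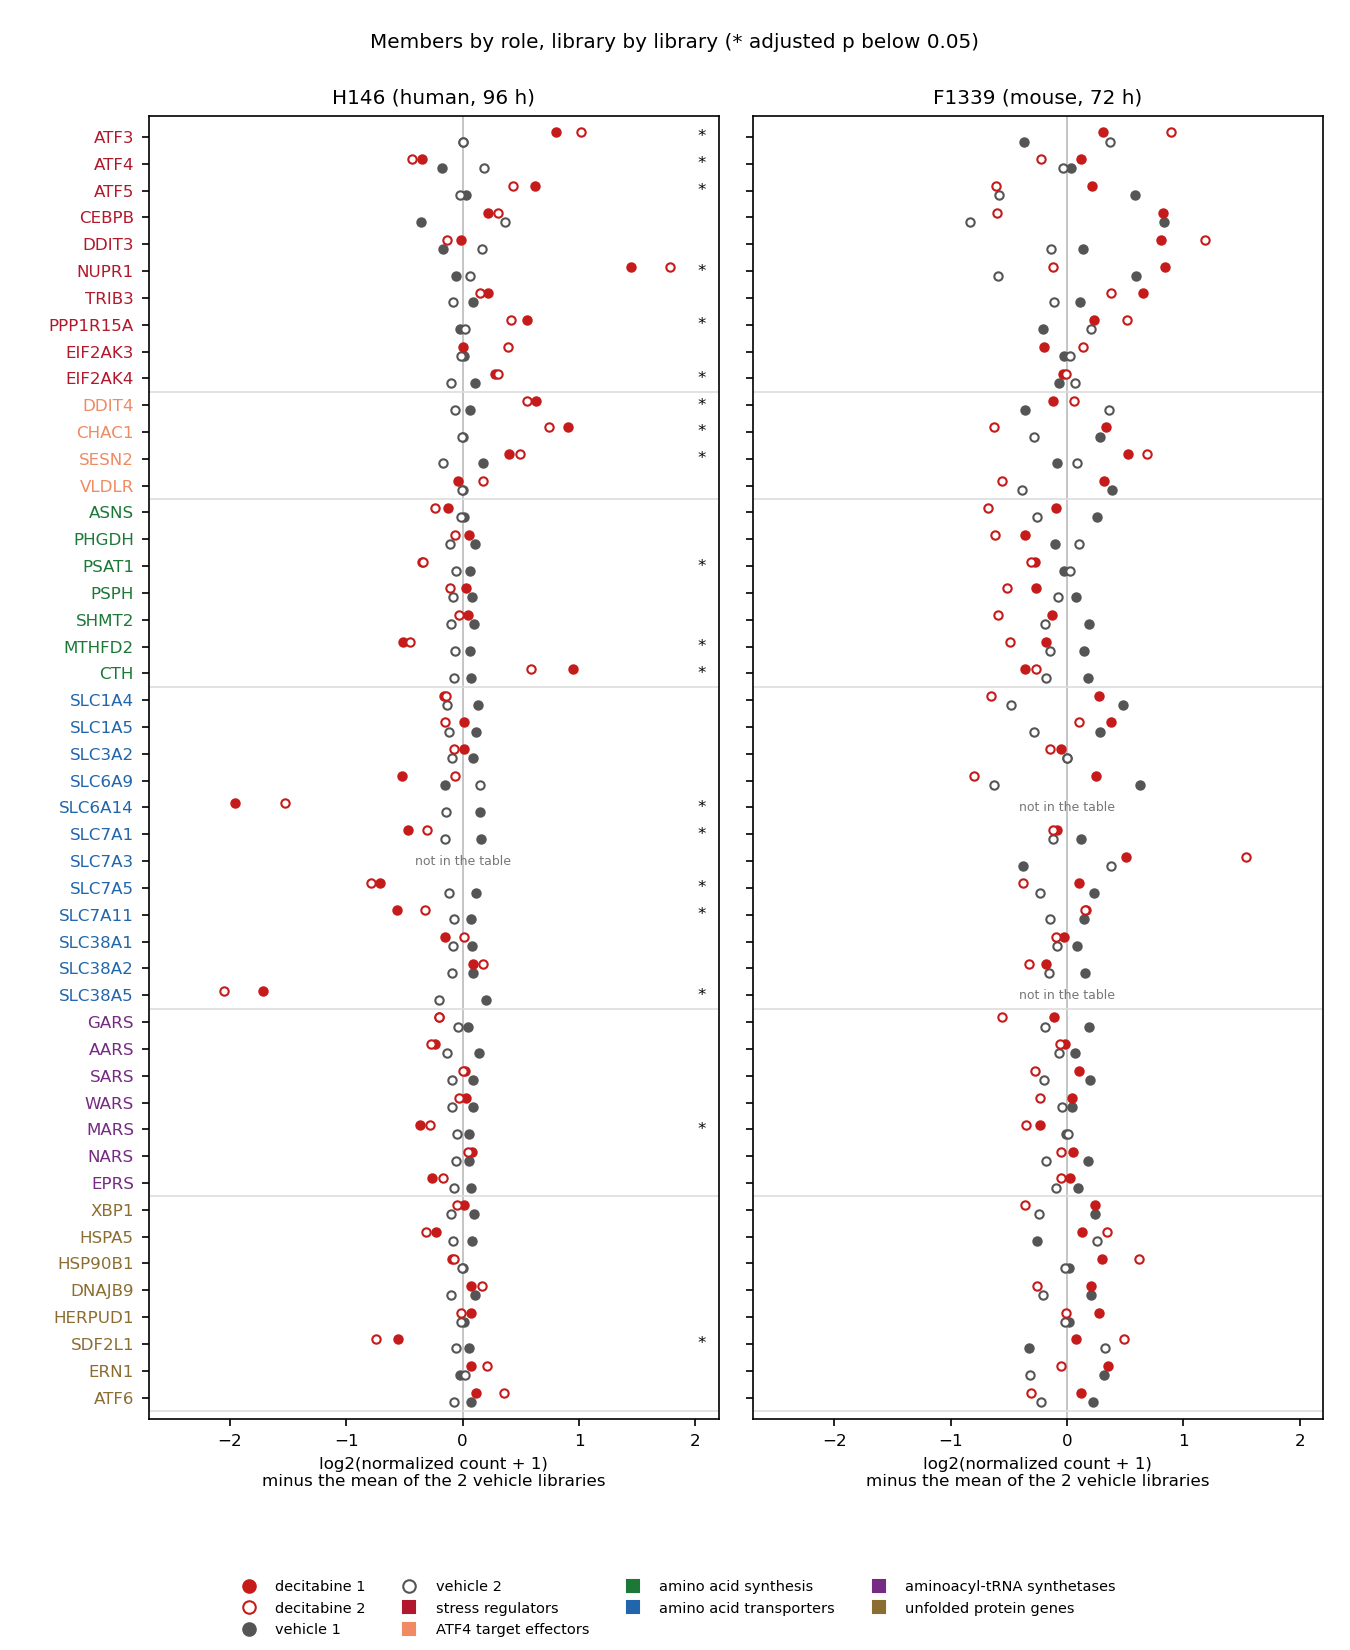
Each of the 48 members, ordered by role from top to bottom, in the 4 libraries of H146 (left) and of F1339 (right). The x axis is the log2 of the normalized count plus 1 minus the mean of the 2 vehicle libraries, red circles are decitabine, grey circles are vehicle, filled circles are libraries numbered 1 and open circles those numbered 2, and an asterisk marks an adjusted p below 0.05. In H146 NUPR1 lies far to the right and SLC38A5 and SLC6A14 far to the left, while in F1339 no member carries an asterisk and circles of the same fill, decitabine and vehicle, often fall together.

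Of the 10 stress regulators in H146, 5 were higher and 1 was lower, with a median log2 difference of 0.28. Over all genes tested 15.4% were higher and 12.3% lower. NUPR1, a small chromatin-associated stress protein that ATF4 can induce, had 179 and 225 normalized counts in decitabine and 62.2 and 67.7 in vehicle. Both decitabine libraries were far above both vehicle libraries, a 3.11-fold ratio of means (log2 difference 1.61 ± 0.23 SE, adjusted p 5.4e-06). The gene lies at chr16:28532708-28539174 on the - strand of GRCh38. ATF3, a bZIP repressor and early stress gene, stood at 234 and 271 in decitabine and at 133 in both vehicle libraries, so that the groups were apart (log2 difference 0.91 ± 0.19, adjusted p 0.00066). The adjusted p of ATF3 was 0.081 without the second decitabine library. ATF5, a relative of ATF4 whose translation is also raised by eIF2 phosphorylation, had 10191 and 8956 in decitabine and 6742 and 6516 in vehicle, again with no overlap (0.53 ± 0.10, adjusted p 0.00029). PPP1R15A, the stress-induced subunit (GADD34) that brings phosphatase 1 to eIF2 and closes the response, had 3239 and 2944 in decitabine and 2181 and 2247 in vehicle (0.48 ± 0.10, adjusted p 0.00081). Its adjusted p was 0.052 without the first decitabine library.

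Among the upstream kinases, EIF2AK4 was slightly higher, with 2076 and 2113 normalized counts in decitabine and 1837 and 1594 in vehicle (0.29 ± 0.11, adjusted p 0.044). That call stood at the threshold: the adjusted p was 0.19 without the first decitabine library, 0.22 without the second, 0.33 without the second vehicle library, and 0.063 with DESeq2. EIF2AK3 was not called, with 1431 and 1874 in decitabine and 1447 and 1416 in vehicle, where the first decitabine library lay among the vehicle values. ATF4 itself was the lower regulator. It had 11765 and 11057 in decitabine and 13213 and 16969 in vehicle, with the second vehicle library well above the other 3 (-0.39 ± 0.11, adjusted p 0.012). Without that library the ATF4 difference was -0.21 and the adjusted p 0.27, and the call was also lost without the first (0.11) or the second (0.19) decitabine library.

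The remaining regulators were not called in H146. TRIB3, a pseudokinase that ATF4 and CHOP induce and that dampens ATF4, had 3344 and 3199 normalized counts in decitabine and 3059 and 2714 in vehicle, apart but close (log2 difference 0.18 ± 0.10). DDIT3, the pro-apoptotic factor CHOP, had 709 and 653 in decitabine and 637 and 803 in vehicle, with the decitabine values inside the vehicle range. CEBPB, a dimer partner of ATF4, had 1894 and 2013 in decitabine and 1267 and 2094 in vehicle. The spread of its vehicle libraries was wider than the difference between the groups, and without the second vehicle library its adjusted p was 5.2e-05. Levels between genes can be compared roughly per kilobase of merged exon. Merged exons join all annotated transcripts of a gene, so the level of a gene expressed as a shorter transcript is understated. In vehicle these were 6003 for ATF4, 2244 for ATF5, 859 for CEBPB, 841 for TRIB3, 551 for DDIT3, 33.0 for ATF3 and 11.4 for NUPR1 normalized counts per kilobase. By this measure the 2 regulators with the largest rises were the least abundant of these in vehicle.

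Of the 4 ATF4 effector genes, 3 were higher and none lower in H146, with a median log2 difference of 0.52. Over all genes tested 15.4% were higher. CHAC1, which breaks down the antioxidant glutathione, had 367 and 328 normalized counts in decitabine and 197 and 195 in vehicle (0.82 ± 0.17, adjusted p 0.00053, and 0.069 without the first decitabine library). DDIT4, the mTORC1 inhibitor REDD1, had 1802 and 1710 in decitabine and 1214 and 1114 in vehicle (0.59 ± 0.11, adjusted p 0.00018), with 41.2% of its exon bases shared with DDIT4-AS1 on the opposite strand. In both genes all decitabine values were above all vehicle values. SESN2, a leucine sensor that holds mTORC1 in check, had 1259 and 1342 in decitabine and 1073 and 846 in vehicle (0.45 ± 0.12, adjusted p 0.0079). The SESN2 call was lost without the first decitabine (adjusted p 0.091), the second decitabine (0.16) or the second vehicle library (0.15). VLDLR, a lipoprotein receptor, had 1568 and 1818 in decitabine and 1620 and 1605 in vehicle, which overlap, and was not called.

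Genes of amino acid synthesis did not move together in H146: 1 of 7 was higher, 2 were lower and 4 were not called. Their median log2 difference was -0.04. Over all genes tested 15.4% were higher and 12.3% lower. CTH, the last enzyme of cysteine synthesis from methionine, had 174 and 135 normalized counts in decitabine and 94.3 and 85.2 in vehicle (0.77 ± 0.23, adjusted p 0.012). Its groups were apart, and the call was lost without the first (adjusted p 0.27) or the second (0.075) decitabine library. MTHFD2, a mitochondrial enzyme of the folate cycle, had 10695 and 11162 in decitabine and 15997 and 14618 in vehicle (-0.48 ± 0.10, adjusted p 0.00082). PSAT1, the transaminase of serine synthesis, had 1800 and 1816 in decitabine and 2394 and 2206 in vehicle (-0.35 ± 0.10, adjusted p 0.014). Both MTHFD2 and PSAT1 were below vehicle in each decitabine library, but the PSAT1 call was lost without either decitabine library (0.11 without the first, 0.099 without the second) or without the first vehicle library (0.099). The other serine and glycine genes were not called: PHGDH, the entry enzyme of serine synthesis, averaged 7418 ± 437 in decitabine and 7474 ± 782 in vehicle, PSPH, the phosphatase of its last step, 2458 ± 159 and 2527 ± 199, and SHMT2, which makes glycine in mitochondria, 18747 ± 776 and 18685 ± 1759 (SD, n = 2 each). ASNS, the asparagine synthetase and a classical ATF4 target, had 4964 and 4579 in decitabine and 5451 and 5372 in vehicle, apart and lower, and was not called (-0.18 ± 0.10, adjusted p 0.18).

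Of all 20783 genes tested in H146, 12.3% were called lower and 10556 had a fitted difference below 0. Among the 11 transporters listed there, 5 were lower and none was higher. Their median log2 difference was -0.29, with 10 of the 11 fitted differences below 0. Without the first decitabine library 3 of the 5 remained called. SLC38A5 (SNAT5), a sodium-coupled carrier of glutamine, asparagine, histidine and glycine, had 159 and 126 normalized counts in decitabine and 604 and 456 in vehicle. Every vehicle value was more than any decitabine value by a wide margin, a 3.72-fold ratio of vehicle over decitabine (-1.88 ± 0.18, adjusted p 1.3e-08). SLC6A14 (ATB0,+), a concentrative carrier of neutral and cationic amino acids, had 63.0 and 85.0 in decitabine and 274 and 224 in vehicle, a 3.36-fold ratio of vehicle over decitabine (-1.74 ± 0.22, adjusted p 1.2e-06). Both genes are on the X chromosome of GRCh38, SLC38A5 at chrX:48458537-48470256 on the - strand and SLC6A14 at chrX:116436622-116461458 on the + strand. SLC7A5 (LAT1), the exchanger that brings in leucine and other large neutral amino acids, had 6574 and 6215 in decitabine and 11626 and 9904 in vehicle, with no overlap (-0.75 ± 0.10, adjusted p 4.7e-06).

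SLC7A11 (xCT), the cystine and glutamate exchanger, had 2264 and 2676 normalized counts in decitabine and 3524 and 3174 in vehicle (-0.44 ± 0.11, adjusted p 0.0028, and 0.13 without the first decitabine library). SLC7A1, the carrier CAT1 of arginine and lysine, had 9924 and 11154 in decitabine and 15329 and 12393 in vehicle (-0.39 ± 0.11, adjusted p 0.011). Both genes were lower in each decitabine library, while the SLC7A1 call was lost without the first decitabine (0.23), the second decitabine (0.065) or the first vehicle library (0.19). SLC3A2, the heavy chain with which both SLC7A5 and SLC7A11 reach the cell surface, was not called: it averaged 9176 ± 408 in decitabine and 9393 ± 812 in vehicle (-0.03 ± 0.10). The difference between SLC3A2 and its partners was not tested. The glutamine and small neutral amino acid carriers were not called: SLC1A4 averaged 7311 ± 74.8 in decitabine and 8159 ± 1084 in vehicle, SLC1A5 3860 ± 314 and 4065 ± 457, SLC38A1 27130 ± 2178 and 28453 ± 2249, and SLC38A2 11106 ± 503 and 10155 ± 914 (SD, n = 2 each). SLC6A9, the glycine transporter GlyT1, had 204 and 279 in decitabine and 264 and 324 in vehicle, which overlap. Per kilobase of merged exon the vehicle levels ran from 2841 for SLC38A1, 2269 for SLC7A5, 1814 for SLC3A2, 1802 for SLC7A1, 1538 for SLC38A2, 1220 for SLC1A5 and 1176 for SLC1A4 down to 347 for SLC7A11, 132 for SLC38A5, 57.0 for SLC6A9 and 55.0 for SLC6A14. By this measure the steepest falls were among the 3 least abundant carriers, while SLC7A5, also lower, was next to the most abundant.

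**Figure D2:**
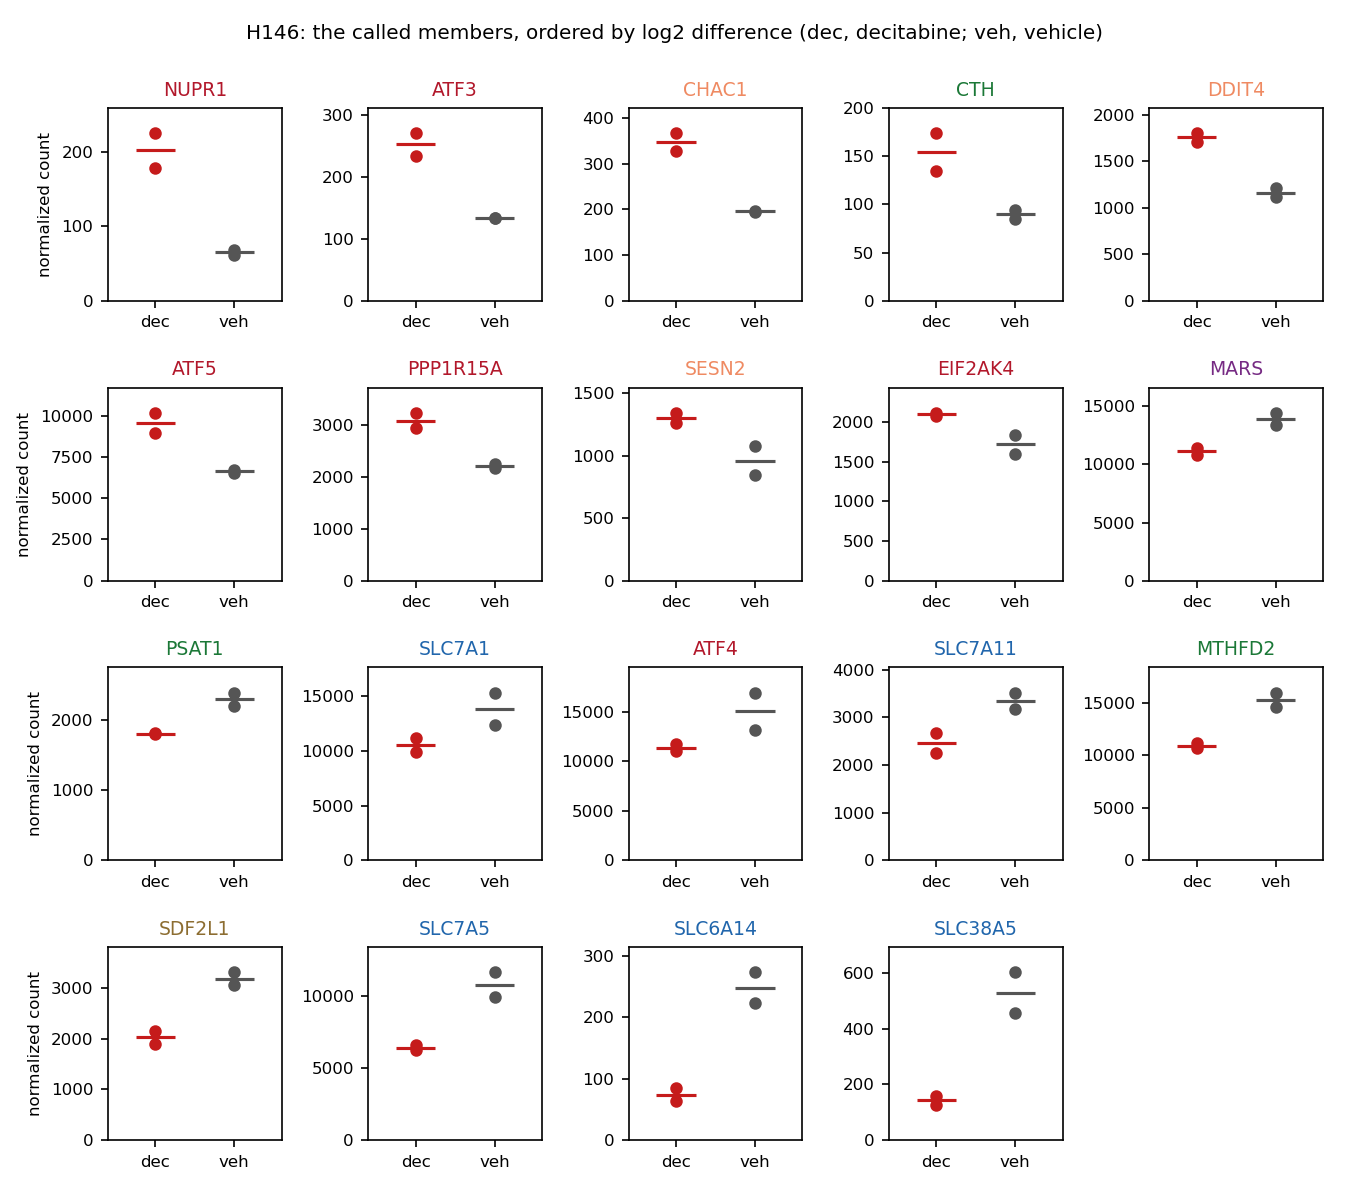
Normalized counts of the 19 members called in H146, one panel per gene from the largest rise (top left) to the largest fall (bottom), with decitabine left of vehicle, dots for the 2 libraries of a group, a bar for their mean, and a y axis that starts at 0. Decitabine and vehicle dots do not overlap in any panel; the gap between them is wide for NUPR1, SLC6A14 and SLC38A5 and narrow for EIF2AK4.

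Of the 7 cytosolic aminoacyl-tRNA synthetases, which load tRNAs with amino acids, 1 was lower and none higher in H146. Their median log2 difference was -0.20. The 14.3% that were lower are near the 12.3% of all genes tested that were lower. MARS, for methionine, had 10816 and 11435 normalized counts in decitabine and 14446 and 13436 in vehicle (-0.33 ± 0.10, adjusted p 0.019). Its call was lost without the first decitabine (0.18), the second decitabine (0.088) or the first vehicle library (0.12). GARS, AARS and EPRS, for glycine, alanine, and glutamate with proline, were also below vehicle in every decitabine library and were not called, with differences of -0.20, -0.26 and -0.22. AARS had 13582 and 13255 in decitabine and 17624 and 14552 in vehicle, and its adjusted p was 0.087 with all libraries and 0.020 without the second vehicle library. SARS, WARS and NARS, for serine, tryptophan and asparagine, had overlapping groups and differences of 0.02, -0.002 and 0.06. Exons of MARS overlap those of DDIT3 on the opposite strand, and whether reads were counted by strand is not given in the sources used here, so reads in the overlap could belong to either.

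Most unfolded protein genes were not called in H146: 1 of 8 was lower, none was higher, and the median log2 difference was 0.00. The 12.5% that were lower are near the 12.3% of all genes tested that were lower. SDF2L1, a cochaperone of BiP, had 2161 and 1898 normalized counts in decitabine and 3314 and 3058 in vehicle, well apart (-0.65 ± 0.10, adjusted p 3.4e-05). HSPA5, the chaperone BiP itself, had 21288 and 19990 in decitabine and 26347 and 23593 in vehicle, apart and lower but not called by limma (-0.27 ± 0.11, adjusted p 0.070). It was called by limma with all libraries at an equal total (adjusted p 0.031), and on recovered reads by edgeR (0.042) and DESeq2 (0.025). HSP90B1, the chaperone GRP94, was by far the most abundant member per kilobase, at 19008 in decitabine and 20155 in vehicle, and was not called. The sensors were not called, with 1535 and 1692 in decitabine and 1444 and 1484 in vehicle for ERN1 and 3548 and 4197 in decitabine and 3444 and 3109 in vehicle for ATF6. XBP1, DNAJB9 and HERPUD1, which code for the IRE1-activated factor, an endoplasmic reticulum cochaperone and a protein of endoplasmic reticulum degradation, had overlapping groups and differences of -0.02, 0.12 and 0.03.

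Carriers of the promoter elements printed above did not stand together in H146. Of the 13 members with the composite element, 2 were higher (ATF3 and CHAC1), 2 lower (SLC7A1 and MARS) and 9 not called, with a median log2 difference of -0.07. Of the 30 members with a window and without it, 6 were higher, 7 lower and 17 not called, with a median of 0.01. A window without a match can miss an element that varies from the pattern or lies outside the window. The comparison therefore cannot separate ATF4 targets from other members. The 3 carriers of the stress element were not called, with differences from -0.27 to -0.02. The CpG content of the windows, as CpG observed over expected, had a median of 0.867 over the members' windows and 0.737 over all windows of protein-coding genes. ATF3, SLC38A5 and SLC6A14 were the members with a ratio below 0.4 in every window, at most 0.239, 0.247 and 0.172. All 3 were called, ATF3 higher and SLC38A5 and SLC6A14 lower. The share of calls over all genes with windows this low was not computed. The median of each member's highest ratio was 0.79 for those called higher, 0.975 for those called lower and 0.916 for those not called. Members that were not called had at least 1 window at 0.605 or more, but could have other windows as low, such as 0.163 in WARS and 0.331 in SLC1A5. The members named here were chosen after their values were seen, and DNA methylation was not measured in the files used here.

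Other genes of the same pathways, in lists that overlap with no member, leaned lower in H146. Of 112 tested, 7 were higher and 33 lower (35.7% called, against 27.7% of all genes), with a median log2 difference of -0.13. Of 18 further stress regulators, 5 were lower and none higher. The 5 included NRF1 (-0.37), which is nuclear respiratory factor 1. The GCN2 activator GCN1 averaged 10669 ± 1242 normalized counts in decitabine and 17159 ± 2084 in vehicle (-0.69). The eIF2B subunit EIF2B5 averaged 5661 ± 195 and 9006 ± 58.5 (-0.67), and the double-stranded RNA kinase EIF2AK2 2567 ± 126 and 3968 ± 222 (-0.63), all with SD and n = 2 each. Of 20 further ATF4 targets and synthesis genes, 4 were higher and 8 lower. GDF15, a secreted stress hormone, had 2016 and 1609 in decitabine and 635 and 550 in vehicle (1.61 ± 0.13, adjusted p 3.8e-10), while the mitochondrial folate enzyme MTHFD1L (-0.85) and the mitochondrial protease LONP1 (-0.84) were lower. Of 19 further transporters, 2 were higher and 3 lower, the 3 being SLC7A2, SLC36A1 and SLC16A10 with differences of -0.77, -0.41 and -0.39.

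The counts of further synthetases and unfolded protein genes in H146 stand beside 15.4% of all genes tested that were higher and 12.3% that were lower. Of 17 mitochondrial synthetases, 9 were lower and none higher, with a median log2 difference of -0.28. LARS2 had 1469 and 1518 normalized counts in decitabine and 3228 and 2854 in vehicle (-1.02 ± 0.11, adjusted p 4.1e-08), and SARS2 (-0.99) and EARS2 (-0.83) followed; these load mitochondrial tRNAs with leucine, serine and glutamate. Of 16 further cytosolic synthetases and partners, 4 were lower and none higher, with LARS (-0.45), the scaffold protein EEF1E1 (-0.43) and YARS (-0.31) having the largest differences. Of 22 further unfolded protein genes, 1 was higher and 4 lower: the membrane protein WFS1 was higher by 0.39, and the oxidase ERO1B (-0.72) and the degradation factor DERL3 (-0.40) were lower.

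In F1339, with treatment as the only term, limma called no member and none of the 16680 genes tested (0% called in either direction). At an unadjusted p below 0.05 there were 4 members higher and 2 lower, beside 3.57% and 2.01% of all genes (5.59% in either direction). With edgeR on recovered reads no gene was called, and DESeq2 called 107 genes (0.641%), of which 1 was a member, DDIT3. With the replicate number as a block, limma called 1325 genes. The members among them were ATF3, DDIT3, TRIB3, SESN2 and HSP90B1, which were higher, and ASNS, PHGDH and SHMT2, which were lower. The block pairs libraries by number alone. Both decitabine libraries lay above both vehicle libraries for 7 members and below them for 8, against 17.9% and 18% of all genes tested. Together this is 32.6% of the 46 members, beside 35.9% of all genes. Replicate libraries differed more in this line: the median absolute log2 difference between the 2 libraries of a group was 0.262 in decitabine and 0.299 in vehicle, against 0.151 and 0.164 in H146.

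The stress regulators of F1339 that stood apart were all higher. DDIT3 had 1386 and 1803 normalized counts in decitabine and 874 and 718 in vehicle, a ratio of means of 2.0 (log2 difference 0.996 ± 0.22, limma adjusted p 0.89, DESeq2 adjusted p 0.026). TRIB3 had 3636 and 3001 in decitabine and 2495 and 2144 in vehicle (0.51 ± 0.17), and PPP1R15A had 2263 and 2749 in decitabine and 1663 and 2223 in vehicle (0.38 ± 0.21), both not called. The effector SESN2 also stood apart, with 2776 and 3102 in decitabine and 1816 and 2043 in vehicle (0.61 ± 0.15), not called. Other members of these groups were divided by library number rather than by treatment. CEBPB had 1497 and 556 in decitabine and 1513 and 473 in vehicle, ATF5 had 18649 and 10530 in decitabine and 24164 and 10724 in vehicle, and CHAC1 had 3696 and 1898 in decitabine and 3582 and 2410 in vehicle. In each of these 3 genes the libraries numbered 1 were the high ones in both groups. NUPR1 and VLDLR showed the same division, while ATF3 was higher in both libraries numbered 2, with 862 and 1297 in decitabine and 540 and 899 in vehicle (0.60 ± 0.35). ATF4 had 20034 and 15837 in decitabine and 18908 and 18076 in vehicle, which overlap, and EIF2AK3, EIF2AK4 and DDIT4 had fitted differences of -0.03, -0.02 and -0.03 that turned positive with all libraries at an equal upper quartile or an equal total, as that of ATF4 did at an equal total.

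Of all 16680 genes tested in F1339, 8514 had a negative fitted difference. All 7 synthesis genes had a negative one, from -0.49 to -0.29 with a median of -0.36. The sign of this median was the same under both rescalings. None of the 7 was called by limma with treatment as the only term. PHGDH had 10986 and 9170 normalized counts in decitabine and 13154 and 15104 in vehicle (-0.49 ± 0.15), and PSAT1 had 22376 and 21864 in decitabine and 26617 and 27583 in vehicle (-0.29 ± 0.11). PSPH had 1616 and 1354 in decitabine and 2047 and 1837 in vehicle (-0.39 ± 0.17). In these 3 genes of serine synthesis, and in MTHFD2 (15281 and 12280 in decitabine, 19159 and 15584 in vehicle) and CTH (19.7 and 21.1 in decitabine, 29.2 and 22.4 in vehicle), both decitabine libraries were below both vehicle libraries. The same held for 18% of all genes tested. ASNS (15166 and 10120 in decitabine, 19346 and 13510 in vehicle) and SHMT2 (15292 and 11088 in decitabine, 19113 and 14689 in vehicle) overlapped between groups, since the spread between libraries of a group was wider than the difference. Within numbers 1 and 2 the decitabine library was below the vehicle library by log2 differences of -0.35 and -0.42 for ASNS and of -0.32 and -0.41 for SHMT2.

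Transporters and synthetases of F1339 mostly overlapped between groups. SLC7A3, the cationic amino acid carrier CAT3 that the H146 table does not list, was near the lower end of the table, with 10.8 and 23.0 normalized counts in decitabine and 5.40 and 9.76 in vehicle (1.02 ± 0.62, not called). SLC7A11 was apart and higher by a small amount, with 1329 and 1322 in decitabine and 1313 and 1076 in vehicle, SLC3A2 was apart and lower with 12129 and 11340 in decitabine and 12555 and 12550 in vehicle, and SLC38A2 was apart and lower with 19904 and 18026 in decitabine and 25087 and 20340 in vehicle. The SLC7A11 difference of 0.16 and the SLC3A2 difference of -0.10 were both within 1 SE of 0. SLC7A5 had 16345 and 11724 in decitabine and 17972 and 12955 in vehicle, and SLC1A4 had 10890 and 5722 in decitabine and 12554 and 6422 in vehicle, divided by library number, as were SLC1A5, SLC6A9, SLC7A1 and SLC38A1. MARS was the single synthetase whose groups were apart, with 11078 and 10161 in decitabine and 12930 and 13069 in vehicle (-0.29 ± 0.11), and the other 6 were higher in both libraries numbered 1.

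Of the 8 unfolded protein genes of F1339, 5 had positive fitted differences, the median was 0.14, and none was called with treatment as the only term. HSP90B1 had 35546 and 44325 normalized counts in decitabine and 29127 and 28534 in vehicle, apart (0.46 ± 0.15, adjusted p 0.89). HSPA5 had 31550 and 36494 in decitabine and 24042 and 34476 in vehicle, and SDF2L1 had 5569 and 7444 in decitabine and 4206 and 6647 in vehicle, which overlap and are higher in the libraries numbered 2. XBP1, DNAJB9, HERPUD1, ERN1 and ATF6 overlapped as well, with differences between -0.10 and 0.15. Of all 16680 genes tested, 17.9% were above vehicle in both decitabine libraries and 8166 had a positive difference. Of 20 other unfolded protein genes tested, 15 were above vehicle in both decitabine libraries and 19 had a positive difference, with a median of 0.36. None was called by limma, and 5 had an unadjusted p below 0.05. Examples, chosen after their values were seen, were the chaperone HYOU1, with 23691 and 28438 in decitabine and 18597 and 19087 in vehicle, and the transcription factor CREB3L2, with 664 and 655 in decitabine and 531 and 370 in vehicle. In H146, limma did not call HYOU1 (log2 difference -0.003) and called CREB3L2 lower (-0.29, adjusted p 0.034). GDF15, also chosen after its values were seen, had 72.7 and 193 in decitabine and 18.4 and 13.7 in vehicle (2.83 ± 0.60, limma adjusted p 0.89, DESeq2 adjusted p 0.020).

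Set side by side, 6 of 45 members (13.3%) were apart in the same direction in both lines, beside 15.3% of the 11845 genes tested in both. Groups were apart and higher in both lines for TRIB3, PPP1R15A and SESN2, and apart and lower in both for PSAT1, MTHFD2 and MARS, of which H146 called PPP1R15A, SESN2, PSAT1, MTHFD2 and MARS. Of the members called higher in H146, ATF3, NUPR1, PPP1R15A and SESN2 had a positive fitted difference in F1339, and ATF5, EIF2AK4, DDIT4, CHAC1 and CTH a negative one, which for EIF2AK4 and DDIT4 turned positive under both rescalings. Of those called lower in H146, 6 had a negative difference in F1339 (ATF4, PSAT1, MTHFD2, SLC7A1, SLC7A5 and MARS), that of ATF4 turning positive at an equal total, and SLC7A11 and SDF2L1 had a positive one. DDIT3, called in neither line by limma with treatment as the only term, stood at 0.996 ± 0.22 in F1339 and -0.07 ± 0.13 in H146. The 2 lines were not tested against each other, since their tables were normalized apart.

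**Figure D3:**
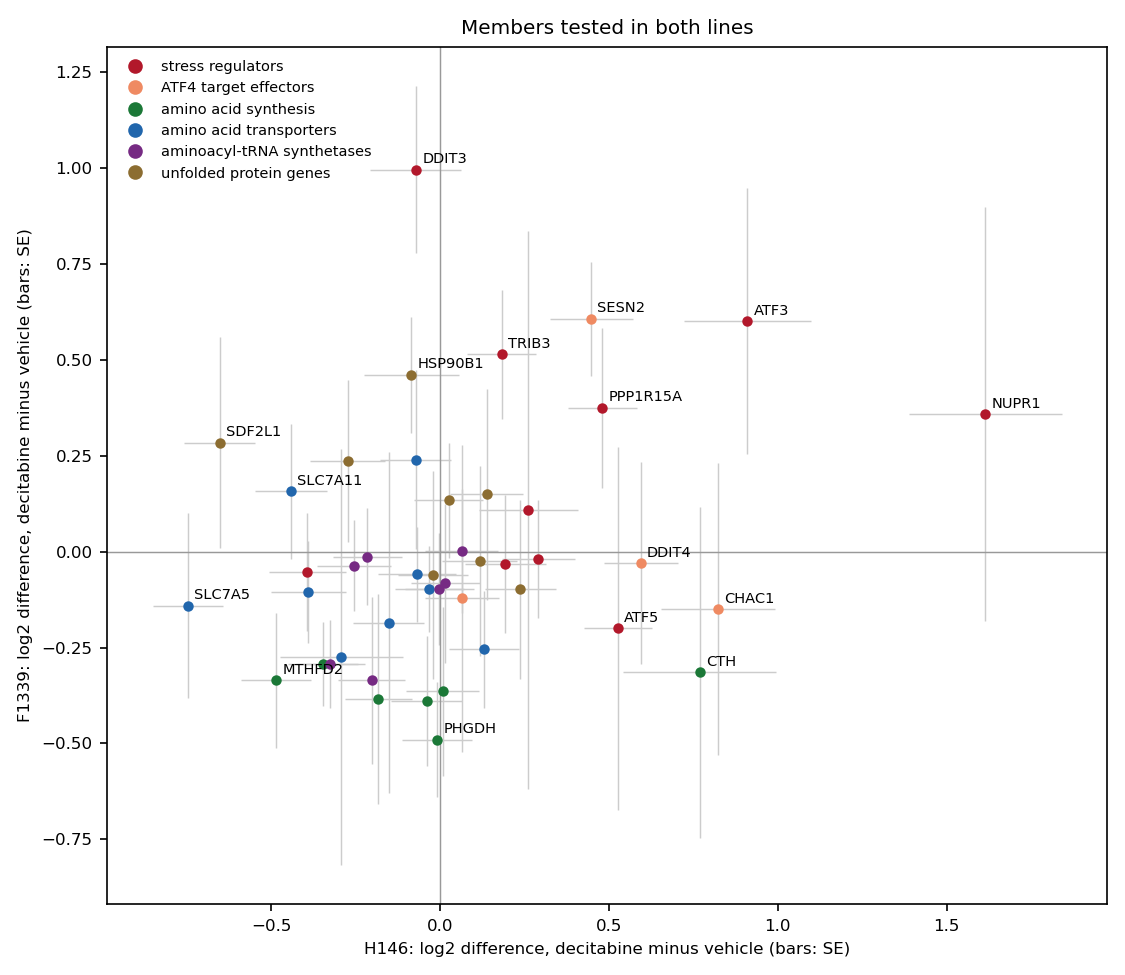
Log2 difference, decitabine minus vehicle, of the 45 members tested in both lines, with H146 on the x axis, F1339 on the y axis, grey bars for 1 SE in each direction and colours for the roles. NUPR1, ATF3, SESN2 and PPP1R15A lie to the upper right, DDIT3 is high on the y axis with an x value near 0, and the bars in F1339 are often longer than those in H146, as for NUPR1 and CHAC1.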

How the data were processed

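The authors' deposited tables, 1 per line, hold signal values per gene and library: gene counts that were scaled by a size factor of the library (normalized counts, without a log). They also hold the authors' log2 fold change and p-values. The deposited log2 fold changes have the sign of vehicle over decitabine in H146 and of decitabine over vehicle in F1339, from the values, and the authors' deposited table calls 19 members in H146 and 1 in F1339 at an adjusted p below 0.05. In H146 these include HSPA5 (authors' adjusted p 0.025), which limma did not call here. They leave out EIF2AK4 (authors' adjusted p 0.064), which limma called. The member in F1339 is DDIT3. Per the submitters' processing notes, the tools were Trimmomatic (0.36) and STAR (2.5.2b), then featureCounts from Subread (1.5.2) and DESeq2, and GRCh38 is the build named for human and mouse alike. For the annotation, the strandedness and the mouse build, nothing was found: not given in the sources used here. No listed gene has fewer than 41 reads over the 4 libraries of its line.

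The groups are those of the labels, by line and treatment. The values were logged (log2 of value plus 1), which understates changes of low genes. Genes at 10 or more in 2 or more libraries of a line were fitted with limma 3.58.1 in R 4.3.3, per line, with treatment as the only term and eBayes following the variance trend. The SEs and p-values of limma thus use a variance drawn toward that of genes of similar level. Adjustment was by the method of Benjamini and Hochberg across the genes tested, with a threshold of 0.05. Ratios are of mean normalized counts. Reads were recovered as whole multiples of each library's value of 1 read, with 100% of values whole within 0.001 read. In decitabine 1 and vehicle 1 of H146 that value is very close to 1, so recovery there cannot be told from rounding on low values alone. The recovered reads were used in the edgeR 4.0.16 and DESeq2 1.42.0 alternatives, and in no main result. The procedure was tested on simulated data.

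The members, their grouping by role, the further pathway lists and the rule for naming their genes (up to 3 called per list and line, by size of difference) were chosen with earlier results of these data known. NRF1 is named outside that rule, since it was counted among the further stress regulators. Exon lengths, positions and overlaps are those of GENCODE 29, matched by Ensembl ID, and promoter windows are from RefSeq, matched by symbol. Of the 47 members of H146, 11 have pseudogenes named after them (among them ATF4, MTHFD2, PSAT1 and SLC7A5) and 10 share at least 10% of their exon bases with another gene (among them ATF5, DDIT3, DDIT4, MTHFD2 and MARS), and their values are uncertain to that extent. Alternatives changed the pseudocount, the filter, the scaling, the variance trend, the tool and the replicate block, and left out each library in turn.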

Additional observations from a re-analysis of the deposited data

Results flagged for a closer look

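The groups of 3 members were apart in opposite directions in H146 and F1339, and in each case the difference between the lines was not tested. This is 6.67% of the 45 members in both tables, beside 8.37% of the 11845 genes tested in both lines. The log2 difference of CTH was 0.77 in H146 (174 and 135 normalized counts in decitabine, 94.3 and 85.2 in vehicle) and -0.31 in F1339 (19.7 and 21.1 in decitabine, 29.2 and 22.4 in vehicle). That of SLC7A11 was -0.44 in H146 (2264 and 2676 in decitabine, 3524 and 3174 in vehicle) and 0.16 in F1339 (1329 and 1322 in decitabine, 1313 and 1076 in vehicle). That of HSP90B1 was -0.085 in H146 (88729 and 89756 in decitabine, 95019 and 94235 in vehicle) and 0.46 in F1339 (35546 and 44325 in decitabine, 29127 and 28534 in vehicle). Of these, CTH and SLC7A11 were called in H146, and none was called in F1339 with treatment as the only term. In each gene the difference of 1 line was smaller in size than its SE. These SEs were 0.43 for CTH in F1339, 0.18 for SLC7A11 in F1339 and 0.14 for HSP90B1 in H146.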

How the results depend on the processing

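The H146 counts of 9 higher and 10 lower stayed at 8 or 9 higher and 10 or 11 lower under both pseudocounts, both filters, both rescalings, edgeR, DESeq2 and the replicate block. Without a variance trend, 3 members were higher (NUPR1, ATF3 and CHAC1) and 3 lower (SLC38A5, SLC6A14 and SLC7A5). Calls over all genes then fell from 5752 to 2164. With 1 library left out, 4 to 9 were higher and 5 to 10 lower, the fewest (4 and 5) without decitabine replicate 1, followed by 5 and 6 without decitabine replicate 2; the library left alone in its group is then assumed to vary like the other group. Fewer of all genes were also called without either decitabine library, so the loss of calls was not confined to the members. NUPR1, SLC38A5, SLC6A14 and SLC7A5 were called under all 14 alternatives, and ATF5, DDIT4, MTHFD2 and SDF2L1 under all but the fit without a variance trend. In F1339 limma called none under any alternative but the replicate block, edgeR called none, and DESeq2 called 1 higher. With the replicate number as a block in F1339, 5 members were higher (ATF3, DDIT3, TRIB3, SESN2 and HSP90B1) and 3 lower (ASNS, PHGDH and SHMT2), among 1325 genes called in all. In H146 the block left 8 higher and 11 lower, HSPA5 among the lower. The numbers pair libraries by number alone, and deviations from the group means had a correlation across genes of 0.685 between same-numbered libraries in F1339 and -0.0336 in H146. The cause of these changes was not tested.

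In F1339, the medians of the effectors and of the synthetases, -0.08 each, were 0.02 and 0.01 with all libraries at the same total, where the median of all genes moved to 0.09. With 2 libraries per group, differences within the spread of the F1339 replicates were not called by limma without the block.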
